A study of Mus musculus with 8 samples.

Results

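Kinesins are motor proteins that use ATP to move along, or to shorten, microtubules. The genes described here are the rows of the table whose mouse symbol is Kif, then digits, then at most 1 letter. This gave 32 genes of 13869 in all, and all 32 passed the filter on low values (a mean log2 CPM of at least 0, with CPM the counts per 1000000). They were sorted by the best known role of each motor into 11 mitotic, 12 transport and 9 other kinesins. The annotation holds 38 symbols of this form, and Kif12, Kif17, Kif19a, Kif28, Kif2b and Kif9 were not analysed here.

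RNA came from the heart ventricles of mouse embryos at stage E14.5, in 4 libraries labelled Mib1flox; TnT-Cre and 4 labelled WT. TnT-Cre is a Cre transgene driven by the troponin T promoter of heart muscle, so the floxed Mib1 gene is removed in cardiomyocytes and the other cells of the ventricle keep it. The wild-type hearts came from siblings, and the labels do not say whether these carried the floxed allele or the Cre. Each group began as 16 hearts whose RNA was combined into 4 libraries, so a replicate is a pool. Separate litters or days are not named for the pools, and p-values here reflect how far pools differ from each other, which may be technical.

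Mitotic kinesins build the spindle, move chromosomes and complete cytokinesis, and their transcripts are abundant in tissues that still divide, such as the fetal heart. Transport kinesins carry vesicles, mitochondria and other cargo towards the growing ends of microtubules. Several of them, Kif1a, Kif5a and Kif5c among them, are best known from neurons, where they supply axons and synapses. Mib1 is a ubiquitin ligase gene whose product lets Notch ligands signal, and the comparison asks which transcripts differ when cardiomyocytes lack it.

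Most promoters of the mitotic kinesins held a short sequence that the choice of genes did not use. RefSeq promoters of assembly GRCm38.p6 (250 bases before to 50 after an annotated start) were found for 27 of the 32 genes, 30 promoters in all. The letters TTTGAA, or the reverse complement TTCAAA, form the core of the cell cycle homology region, an element known from promoters of genes expressed in G2 and mitosis. They were present in 9 of 10 mitotic kinesin promoters, against 1 of 11 transport and 2 of 9 other promoters, and in 17.9% of all 32851 promoters of this length. The class was sorted by mitotic role and the element is known from such genes, so this is a description and not an independent test. In 7 mitotic genes the match lay between 45 bases before and 25 bases after the start, a window chosen after the matches were seen. In this narrower window 3.56% of all promoters hold it, as do Kif26b and the second listed promoter of Kif1a. These 7 windows are shown because the match sits near the start in each, with the match in capitals:
Kif11: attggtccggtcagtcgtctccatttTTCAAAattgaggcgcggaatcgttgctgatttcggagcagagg
Kif15: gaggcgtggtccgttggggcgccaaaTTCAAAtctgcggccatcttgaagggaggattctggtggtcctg
Kif22: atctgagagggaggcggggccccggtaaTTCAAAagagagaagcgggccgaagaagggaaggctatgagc
Kif18b: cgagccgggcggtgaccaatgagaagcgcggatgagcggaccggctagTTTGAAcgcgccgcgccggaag
Kif20b: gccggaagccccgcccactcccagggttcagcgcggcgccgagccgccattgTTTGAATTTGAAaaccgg
Kif23: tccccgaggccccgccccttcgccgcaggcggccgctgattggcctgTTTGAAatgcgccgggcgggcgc
Kif4: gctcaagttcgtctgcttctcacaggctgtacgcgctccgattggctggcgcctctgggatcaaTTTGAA

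The windows are chr19:37376337-37376406 (Kif11, plus strand), chr9:122951036-122951105 (Kif15, plus strand), chr7:127042396-127042465 (Kif22, minus strand), chr11:102925100-102925169 (Kif18b, minus strand), chr19:34922313-34922382 (Kif20b, plus strand), chr9:61946775-61946844 (Kif23, minus strand), chrX:100626020-100626089 (Kif4, plus strand), all on GRCm38.p6. In Kif11 and Kif15 the match begins 19 bases before the start, and in Kif22 17 bases before it. In Kif18b, Kif20b, Kif23 and Kif4 it begins at base 4, 8, 3 and 20 of the transcript, and Kif20b carries a second copy beginning at base 14. Kif14 and Kif2c hold the letters farther upstream, beginning 228 and 103 bases before the start, and the Kif18a window does not hold them. The CCAAT box, searched as CCAAT or ATTGG, was in 6 of 10 mitotic kinesin promoters and in 37.4% of all promoters. A match is a description of letters and not of binding.

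The promoter of Kif1a, the 1 kinesin gene called between the genotypes, is shown from 150 bases before to 10 bases after the upstream of its 2 listed starts (chr1:93101865-93102024, minus strand, GRCm38.p6). The capitals mark the E-box CAGCTG, beginning 96 bases before the start, and CACGCG, the class C site of HES-type repressors, beginning 5 bases before it:
Kif1a: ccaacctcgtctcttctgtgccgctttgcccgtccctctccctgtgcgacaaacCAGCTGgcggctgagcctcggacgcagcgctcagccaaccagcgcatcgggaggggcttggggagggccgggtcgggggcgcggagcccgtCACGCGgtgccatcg

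CAGCTG was in 4 of the 30 kinesin promoters and in 16.3% of all promoters, and CACGCG in 7 of 30 and 9.27%. Neither is particular to Kif1a. CAGCTG was also in Kif16b and Kif3b, and CACGCG also in Kif11, Kif16b, Kif1c, Kif2a, Kif26b and Kif3c, none of them called. TGGGAA, the core of the site of the Notch effector RBPJ, was in 11 of the 30 kinesin promoters and in 25.6% of all promoters. It was in neither of the 2 Kif1a promoters, which says only that these letters are not there. In all 9 motifs were searched on both strands, CACGCG after it had been seen in the Kif1a promoter. The GC box GGGCGG was in 22 of the 30 kinesin promoters and in 35.7% of all promoters, and GGAATG, the core of the TEAD site, in 2 of 30 and 14.7%. Spaced patterns of the MEF2 type and the CArG type, with any base between their fixed ends, were in 1 and 26 of the 30 (3.69% and 73.3% of all promoters). Matches of different motifs may overlap.

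The libraries held 6307634 to 11506082 recovered counts, at which a count of 3 corresponds to 0.265 to 0.472 CPM, for counting error only. Mib1 itself stood at 106, 103, 95.3 and 96.3 CPM in the mutants and at 150, 166, 160 and 167 CPM in wild type (log2 difference −0.68 ± 0.06 SE, limma adjusted p = 8.62e-06). Reads from outside the floxed exons enter this value too. The cardiomyocyte markers Myh6, Myh7, Tnnt2, Actc1, Myl2 and 7 others were all present, with a summed level of 44100 to 47100 CPM in the mutants and 45900 to 50400 CPM in wild type. None of the 12 was called by limma, but 10 lay below 0 (median −0.07). At an unadjusted p under 0.05, 4 were lower, beside 14.8% of all genes in either direction. In 2 of these 4, Tnnt2 and Myl2, the mutants lay below all wild-type libraries, beside 4.63% of all genes. Tnnt2 stood at 3390, 3550, 3410 and 3600 CPM in the mutants and 4200, 3960, 3870 and 4070 CPM in wild type (−0.21 ± 0.05 SE, adjusted p = 0.0658). Of the endothelial, macrophage and erythroid markers 5 of 10, 3 of 10 and 2 of 9 fell, beside 1.25% of all genes, and the others were not called (Emcn was at −0.02, Mrc1 at −0.08 and Hbb-y at 0). The list medians were −0.26, −0.52 and −0.49 on the log2 scale. Their summed levels were 1050 to 1100 against 1240 to 1290 CPM, 72.3 to 89 against 106 to 129 CPM, and 1970 to 3230 against 3000 to 4090 CPM in mutant and wild type. Their part in the kinesin results was not tested. In bulk tissue fewer cells of a type and less RNA per cell cannot be told apart. Mutant replicate 1, the deepest library, was the highest of the 8 for 9 kinesins and the lowest for 7, and was the highest for 21.4% of all genes tested.

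Of the 32 kinesin genes, 1 rose and none fell in the mutants at an adjusted p under 0.05 (limma, Benjamini-Hochberg over all 13740 genes tested). Among all genes 2.24% were called, 0.99% higher and 1.25% lower. At an unadjusted p under 0.05 there were 5 kinesins, 4 higher and 1 lower, beside 14.8% of all genes, and voom weights on the recovered counts also called 1 kinesin. In 2 of the 32 genes the 4 mutant libraries and the 4 wild-type libraries did not overlap, Kif1a above and Kif26a below wild type. Among all genes 8.89% did not overlap, 4.26% with the mutants above and 4.63% with the mutants below. These counts are close to what the table as a whole gives for 32 genes. The median difference over the 32 genes was 0.05 on the log2 scale, and 0 over all genes tested.

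**Figure D1:**
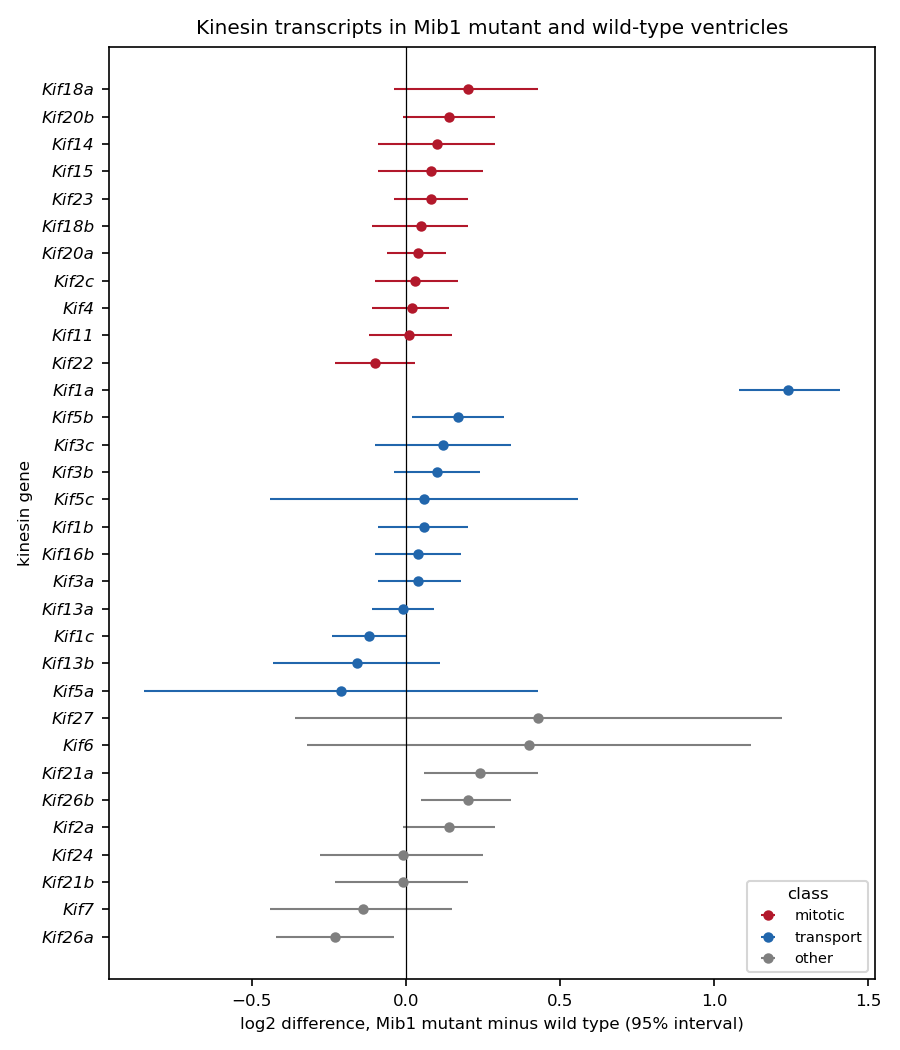
Log2 difference of each of the 32 kinesin transcripts (x axis, mutant minus wild type; y axis, gene), with points for the limma estimate and bars for its 95% interval, colored by class. Kif1a stands at 1.24 with an interval of 1.08 to 1.41, and the estimates of the other 31 genes lie between −0.23 and 0.43.

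Kif1a (ENSMUSG00000014602), a kinesin-3 motor that carries synaptic vesicle precursors and dense-core vesicles along axons, was the transcript that rose. It stood at 65.2, 67.3, 66.1 and 71.4 CPM in the 4 mutant libraries and at 29, 32.4, 27.7 and 25.2 CPM in the 4 wild-type libraries. The lowest mutant library was about as far above the highest wild-type library as that library was above 0, and no value was close to the other group. The means were 67.5 ± 2.71 and 28.6 ± 3.01 CPM (SD, n = 4 each). On the log2 scale Kif1a rose by 1.24 ± 0.08 (SE; adjusted p = 4.64e-07 by limma), or 2.37-fold. The exact two-sided permutation test, run among the kinesins only for this called gene, gave p = 0.0286, the smallest that 4 against 4 libraries allow. Any gene whose groups do not overlap, 8.89% of all genes, gives this value, so it adds no separate support. By the limma p Kif1a ranked 7 among all genes tested, and by size 6 among the 136 called rises.

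The nearest genes on the chromosome and the closest paralogs of Kif1a were not called. Of the 5 tested genes on either side of it in the gene order of GRCm38, none was called by limma. Of these, 3 had an unadjusted p under 0.05, beside 14.8% of all genes. The nearest on each side, Capn10 and Sned1, stood at 0.3 and −0.48 on the log2 scale. No other annotated gene shares exon sequence with Kif1a. Kif1b, which carries mitochondria and synaptic vesicle precursors, stood at 342, 335, 293 and 312 CPM in the mutants and 278, 326, 297 and 333 CPM in wild type. These values overlap, and the difference was 0.06 ± 0.07 (SE). Kif1c, a motor of integrin-bearing and Golgi-related vesicles, stood at 217, 253, 244 and 253 CPM in the mutants and 269, 274, 252 and 255 CPM in wild type (−0.12 ± 0.06 SE, adjusted p = 0.348). The groups overlap, mutant replicate 1 lay well below the rest, and without it Kif1c was at −0.07.

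The shares within the Kif1 group show the same values in another form. Per kb of the longest coding transcript, Kif1a made up 10.8%, 10.4%, 11% and 11.3% of the summed Kif1a, Kif1b and Kif1c level in the mutants. In wild type it made up 4.97%, 5.14%, 4.82% and 4.16%. Kif1b took 41.4% ± 2.8 in the mutants and 41.3% ± 2.4 in wild type (SD, n = 4), and Kif1c took 47.8% ± 2.65 and 53.9% ± 2.11. Shares within a sum must add up, so a higher Kif1a share lowers the others. After its rise Kif1a was still the least abundant of the 3 per kb.

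Kif1a is best known from neurons, so markers of neural cells were read beside it. Of 23 listed neural markers 11 were in the table and 10 were tested. None was called by limma, and 2 had an unadjusted p under 0.05, beside 14.8% of all genes. The summed level of the 11 was 320 to 371 CPM in the mutants and 325 to 337 CPM in wild type. Most of it came from Ncam1, which stood at 253 ± 22.8 and 232 ± 4.89 CPM. None of the 11 was at 0, and 12 others, among them Th, Prph, Sox10 and Snap25, were not analysed here. Tubb3, a tubulin of neurons, stood at 1.85, 2.29, 1.95 and 1.12 CPM in the mutants and 1.15, 1.22, 0.787 and 1.47 CPM in wild type. Elavl4, a neuronal RNA-binding protein gene, stood at 3.88 ± 0.599 and 2.7 ± 0.725 CPM, and Stmn2 at 1.91 ± 0.584 and 1.47 ± 0.509 CPM. The groups of these 3 genes overlap. Dbh, which encodes the enzyme that makes noradrenaline, lay under the filter and was not tested. It was at 1.12 to 1.78 CPM in the mutants and 0.333 to 0.63 CPM in wild type, without overlap. The level of 3 counts is 0.265 to 0.449 CPM in the mutant and 0.333 to 0.472 CPM in the wild-type libraries, so the wild-type values are near it and the mutant values are above it. The part of these low markers in the Kif1a result was not tested.

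**Figure D2:**
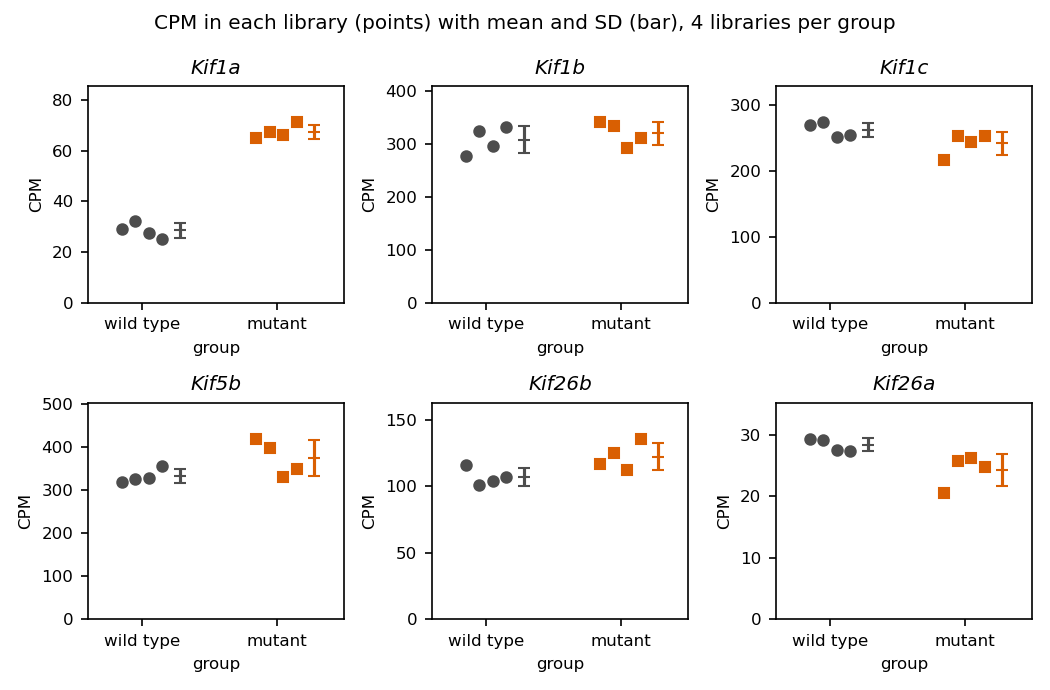
CPM (y axis, from 0) of Kif1a, Kif1b, Kif1c, Kif5b, Kif26b and Kif26a in the 4 wild-type and 4 mutant libraries (x axis), with points for libraries and bars for the mean and SD. The Kif1a groups are far apart, the Kif26a groups are separate by a small gap, and the groups of the other 4 genes overlap.

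The other transport kinesins were not called. Kif5b (kinesin-1), the conventional heavy chain found in most tissues, had the highest CPM of the family. It stood at 420, 399, 331 and 349 CPM in the mutants and 319, 327, 328 and 356 CPM in wild type. Mutant replicates 1 and 2 were above all wild-type libraries, and replicates 3 and 4 were within their range. The difference was 0.17 ± 0.07 (SE; adjusted p = 0.284), and without mutant replicate 1 it was 0.11. The neuronal paralogs Kif5a and Kif5c lay at 1.71 ± 0.294 and 2.61 ± 0.302 CPM in wild type and 1.53 ± 0.512 and 2.79 ± 0.711 CPM in the mutants. Per kb, Kif5b made up 98.8% ± 0.163 of the Kif5 level in wild type and 99% ± 0.207 in the mutants. The 95% intervals of Kif5a and Kif5c were −0.85 to 0.43 and −0.44 to 0.56 on the log2 scale, both below the interval of Kif1a.

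Kinesin-2 motors pair Kif3a with Kif3b or Kif3c and, with the adaptor Kifap3, carry cargo in cilia and axons. Kif3b stood at 44.2, 44, 41.8 and 41.7 CPM in the mutants and 42.7, 40.7, 38.7 and 38.1 CPM in wild type (0.1 ± 0.06 SE, adjusted p = 0.507). The lower mutant libraries lay below the highest wild-type library. Kif3a was at 52.8 ± 1.7 and 51.2 ± 2.71 CPM and Kif3c at 33.9 ± 3.01 and 31.3 ± 4.54 CPM in mutant and wild type. Kif3b made up 60.4% ± 2.61 of the summed Kif3b and Kif3c level per kb in the mutants and 60.8% ± 4.38 in wild type. The endosomal kinesin-3 motors differed little either. Kif13a was at 220 ± 8.95 and 221 ± 4.15 CPM, with a 95% interval of −0.11 to 0.09 for its log2 difference. Kif16b, a motor of early endosomes, was at 55.2 ± 2.86 and 53.8 ± 3.67 CPM, and Kif13b at 15.1 ± 2.86 and 16.7 ± 1.29 CPM. Without Kif1a, the 11 remaining transport kinesins had log2 differences of −0.21 to 0.17 with a median of 0.04, and 7 lay above 0.

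None of the 11 mitotic kinesins was called by limma, none had an unadjusted p under 0.05, and voom weights called none. Among all genes 2.24% were called and 14.8% had an unadjusted p under 0.05, so counts of 0 among 11 genes say little about the class. The log2 differences of the 11 ran from −0.1 to 0.2 with a median of 0.05. Of the 11, 10 lay above 0, beside 6907 of all 13740 genes tested, and no set test was run. The sign of the mitotic kinesins nearest 0 turned in some alternatives. Kif4 was at −0.01 with quantile scaling and without mutant replicate 4 or wild-type replicate 1 or 2. Kif11 was at −0.03 without mutant replicate 1 or wild-type replicate 2, Kif2c at −0.01 without mutant replicate 2, and Kif15 at −0.01 without mutant replicate 1. All 11 overlapped between the groups, and among all genes 8.89% did not overlap. The 95% intervals of all 11 lay between −0.23 and 0.43, so a change as large as that of Kif1a lies outside every one of them. Kif11, the motor that pushes spindle poles apart, stood at 189, 178, 168 and 161 CPM in the mutants and 178, 160, 167 and 186 CPM in wild type. The groups covered the same range (0.01 ± 0.06 SE, adjusted p = 0.96). Kif20a, which brings the chromosomal passenger complex to the central spindle, was the steadiest of the class, at 125, 125, 129 and 129 CPM in the mutants and 126, 125, 122 and 123 CPM in wild type. Its SD was 1.8% of the mutant mean and 1.4% of the wild-type mean, and its difference was 0.04 ± 0.05 (SE; adjusted p = 0.77).

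The mitotic kinesins with the smallest p were Kif20b, Kif18a, Kif22 and Kif23. Kif20b, a motor of cytokinesis, stood at 55.9, 53.7, 49.2 and 49.1 CPM in the mutants and 51.7, 45, 46.1 and 45.7 CPM in wild type (0.14 ± 0.07 SE, adjusted p = 0.369). Wild-type replicate 1 lay within the mutant range. Kif18a, which damps the movement of chromosomes at the metaphase plate, stood at 24.3, 20.1, 16.9 and 18.2 CPM in the mutants and 17.1, 17.8, 17.3 and 16.5 CPM in wild type (0.2 ± 0.11 SE, adjusted p = 0.433). Mutant replicate 1 was the high value, and without it the difference was 0.1. Kif22, a chromosome-arm motor, was the 1 member below 0, at 49.5, 54.8, 55.2 and 53.4 CPM in the mutants and 57.2, 55, 59.7 and 56.9 CPM in wild type (−0.1 ± 0.06 SE, adjusted p = 0.462). Kif23, which forms centralspindlin with Racgap1, stood at 93.3, 93.8, 87.7 and 89.7 CPM in the mutants and 85, 86.8, 91.5 and 80.9 CPM in wild type (0.08 ± 0.06 SE, adjusted p = 0.524).

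The remaining mitotic members stayed close to 0. Kif15, which can stand in for Kif11 at the spindle, was at 0.08 on the log2 scale. Kif14, a partner of citron kinase in cytokinesis, was at 0.1 and the chromokinesin Kif4 at 0.02. Kif18b, which shortens astral microtubules, was at 0.05 and the centromeric depolymerase Kif2c at 0.03. Summed over the 11 genes, mitotic kinesins gave 808, 791, 768 and 760 CPM in the mutants and 764, 738, 758 and 781 CPM in wild type. The sums overlap.

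Set side by side, the mitotic and transport classes had the same median difference of 0.05 on the log2 scale. In them 0 of 11 and 1 of 12 members were called, beside 2.24% of all genes, so these counts do not tell the classes apart. Transport kinesins summed to 1470, 1480, 1350 and 1420 CPM in the mutants and 1310, 1370, 1340 and 1390 CPM in wild type. The mutant mean was 1430 ± 59.7 and the wild-type mean 1350 ± 33.7 CPM (SD, n = 4), with overlap. The ratio of the summed transport to the summed mitotic level was 1.83 ± 0.0526 in the mutants and 1.78 ± 0.0564 in wild type, and these values overlap as well. The balance between the classes differed by about 1 SD.

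**Figure D3:**
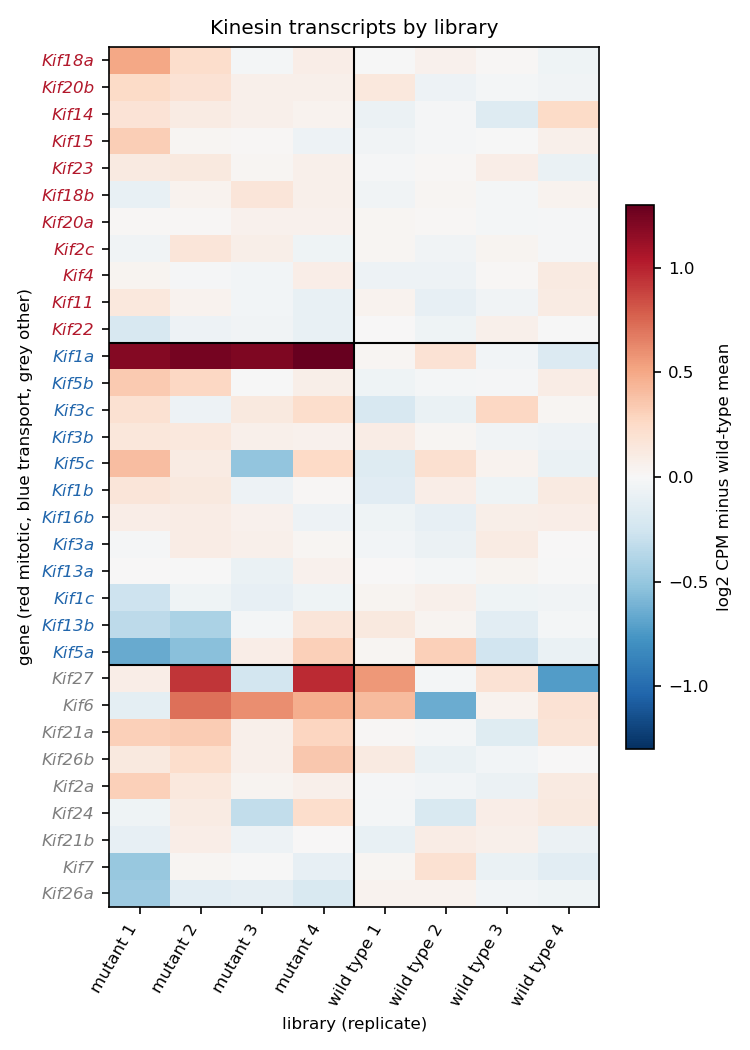
Level of each kinesin gene (rows, by class) in each library (columns) as log2 CPM minus the mean of the wild-type libraries, with red above and blue below. The Kif1a row is dark in all 4 mutant columns, while the strong colors in the Kif27, Kif6, Kif5a and Kif5c rows belong to genes with wild-type means of 1.11 to 2.61 CPM.

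The 9 other kinesins regulate microtubule growth, cilia and signaling, and none was called by limma. At an unadjusted p under 0.05, 2 were higher and 1 was lower, beside 14.8% of all genes in either direction. Kif26b, an atypical kinesin-11 protein with roles in cell adhesion and kidney development, stood at 117, 125, 112 and 136 CPM in the mutants and 116, 101, 104 and 107 CPM in wild type (0.2 ± 0.07 SE, adjusted p = 0.177). Its paralog Kif26a, which acts in the enteric nervous system, stood at 20.5, 25.8, 26.2 and 24.8 CPM in the mutants and 29.4, 29.2, 27.6 and 27.4 CPM in wild type (−0.23 ± 0.09 SE, adjusted p = 0.236). The Kif26a groups did not overlap, the difference being largest in mutant replicate 1, and without that library the difference was −0.15. The ratio of Kif26b to Kif26a CPM was 5.7, 4.85, 4.28 and 5.49 in the mutants and 3.96, 3.45, 3.77 and 3.92 in wild type. This ratio was computed after the values were seen, so it is a description with no test.

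Kif21a, which restrains microtubule growth at the cell cortex, stood at 34, 34.4, 28.6 and 33.3 CPM in the mutants and 27.7, 27, 24.6 and 30.7 CPM in wild type (0.24 ± 0.09 SE, adjusted p = 0.194). Mutant replicate 3 lay within the wild-type range. Kif2a, a depolymerase, stood at 76.2, 67.9, 63.1 and 64.5 CPM in the mutants and 61, 60.3, 58.6 and 67.1 CPM in wild type (0.14 ± 0.07 SE, adjusted p = 0.397). Without mutant replicate 1 it was at 0.08. Kif7, a regulator of Hedgehog signaling in the cilium, was at 9.33 ± 1.46 and 10.2 ± 1.05 CPM in mutant and wild type. Kif24, which acts on centriolar microtubules, was at 16.6 ± 2.7 and 16.6 ± 1.64 CPM, and Kif21b at 13.1 ± 0.777 and 13.3 ± 0.904 CPM. Kif27 and Kif6, associated with motile cilia, had wild-type means of 1.31 ± 0.472 and 1.11 ± 0.326 CPM. Their differences of 0.43 and 0.4 had 95% intervals of −0.36 to 1.22 and −0.32 to 1.12, so at this depth a change of their size was not detectable. The class median was 0.14, and −0.01 when the 2 genes under 5 CPM were left out.

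Levels can be compared between kinesins only per length, here as CPM per kb of the longest coding transcript. In wild type Kif5b came first at 55.1 ± 2.69, followed by Kif1c at 39.3 ± 1.62, Kif11 at 35.8 ± 2.43 and Kif20a at 33.7 ± 0.459 (SD, n = 4). Kif13a at 32.3 ± 0.604 and Kif1b at 30.2 ± 2.5 came next. Kif5b and Kif1c, and Kif20a and Kif13a, differed by more than the sum of their SDs, while the other neighbors among these 6 did not. The lowest were Kif27 at 0.256 ± 0.0922, Kif5a at 0.272 ± 0.0468, Kif6 at 0.314 ± 0.0925 and Kif5c at 0.38 ± 0.0441, which also lay close together. Kif1a ranked 23 of 32 in wild type at 3.48 ± 0.366, and 18 in the mutants at 8.23 ± 0.33. Even after its rise it was lower per kb than Kif5b, Kif1b or Kif1c. With the median length of the coding transcripts in place of the longest, Kif13a came first and Kif5b in place 2, and Kif1a ranked 21, so the order depends on the transcript models. The longest transcript was chosen after both orders had been seen.

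**Figure D4:**
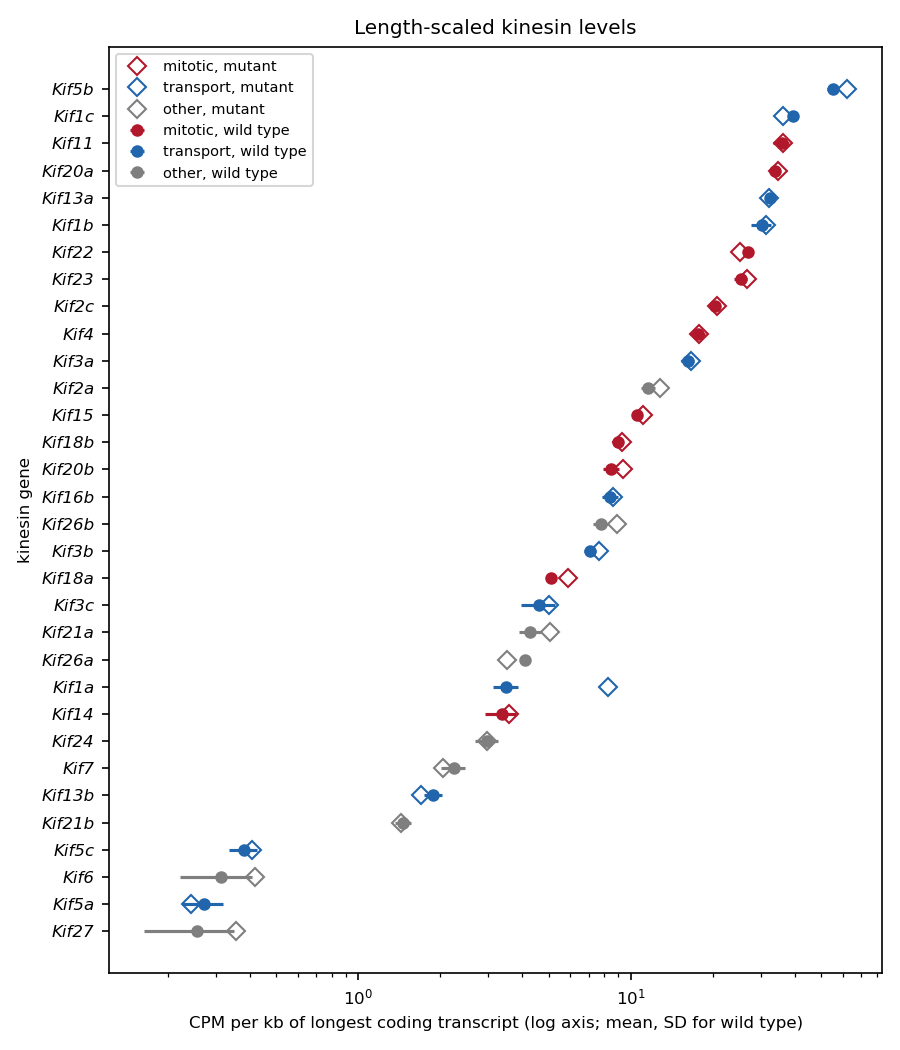
CPM per kb of the longest coding transcript (x axis, log scale) of the 32 kinesin genes (y axis), with filled points and SD bars for wild type and open diamonds for the mutant mean, colored by class. Kif1a moves from 3.48 to 8.23, while the open and filled symbols of most other genes lie on or next to each other.

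Genes that work with kinesins were read from lists that follow textbook roles and were drawn up with earlier results of these data known. Of 6 kinesin superfamily genes named outside the Kif series none was called. Beside 14.8% of all genes, 1 of the 6 had an unadjusted p under 0.05. This was Cenpe, the kinetochore kinesin, at 117, 109, 104 and 111 CPM in the mutants and 98.4, 103, 97.3 and 106 CPM in wild type (0.12 ± 0.05 SE, adjusted p = 0.315). Of 21 tested adaptors, light chains and cargo links of transport kinesins none was called. An unadjusted p under 0.05 was found for 4 of them, beside 14.8% of all genes. Of these, 3 were higher (Klc3, Arl8a and Ppfibp1) and 1 was lower (Rhot2). In 2 of the 21 the mutant libraries lay above all wild-type libraries and in 0 below them, beside 4.26% and 4.63% of all genes. Klc3, a kinesin light chain gene, had the smallest p. It stood at 2.38, 2.42, 2.84 and 3.36 CPM in the mutants and 1.15, 0.777, 1.89 and 2.08 CPM in wild type, without overlap (0.95 ± 0.31 SE, adjusted p = 0.155), and at pseudocounts of 1 and 5 CPM the difference was 0.63 and 0.26. The more abundant light chain genes Klc1 and Klc2 were at −0.03 and 0.06. Kifap3, the adaptor of kinesin-2, was at 0.11. Among genes of mitochondrial transport, Trak1 and Rhot1 were each at 0.09, Trak2 at −0.06 and Rhot2 at −0.14. For Kif1a itself, the liprin genes Ppfia1, Ppfia3 and Ppfia4 were at 0.07, −0.19 and −0.1, Madd at 0.02 and Rab3a at −0.06. From the same list, Arl8a was at 0.2 and Ppfibp1 at 0.12 (limma adjusted p = 0.265 and 0.291). Over the whole list 13 genes lay above 0 and 8 below.

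Of 30 genes of dynein and dynactin, which move cargo in the opposite direction, none was called. Beside 14.8% of all genes, 1 of the 30 had an unadjusted p under 0.05. This was Dynll2, a light chain gene, at 170, 180, 177 and 178 CPM in the mutants and 201, 180, 189 and 194 CPM in wild type (−0.11 ± 0.05 SE, adjusted p = 0.298). Of 32 tubulin and microtubule-associated genes 1 rose, beside 0.99% of all genes, and 4 had an unadjusted p under 0.05, beside 14.8%. In 2 of the 32, Map6 and Tuba1a, the mutant libraries lay above all wild-type libraries, beside 4.26% of all genes. In 2, Tubb2a and Tuba1b, they lay below, beside 4.63%. Map6, which stabilizes microtubules and is best known from neurons, stood at 3.35, 5.09, 3.89 and 4.24 CPM in the mutants and 1.73, 1.55, 2.52 and 2.69 CPM in wild type (0.96 ± 0.23 SE, adjusted p = 0.0494). Its groups did not overlap, but it stayed under 0.05 in 9 of 21 alternative fits (with total-count scaling at 0.05 after rounding). Leaving out any 1 library except wild-type replicate 4 ended the call, with adjusted p values up to 0.162 and differences of 0.83 to 1.08. At pseudocounts of 1 and 5 CPM its difference was 0.73 and 0.36. With the replicate number as a block its adjusted p was 0.0804. Of 31 spindle and cytokinesis genes that work beside the mitotic kinesins none was called, and the median was 0.01. Of these, 5 had an unadjusted p under 0.05, beside 14.8% of all genes. Ect2, which centralspindlin recruits for cytokinesis, stood at 135, 125, 114 and 118 CPM in the mutants and 106, 109, 102 and 114 CPM in wild type (0.19 ± 0.06 SE, adjusted p = 0.145). In 4 of the 31 genes, Ect2 among them, the mutant libraries lay above all wild-type libraries, and in 0 of 31 below them, beside 4.26% and 4.63% of all genes. Racgap1, the partner of Kif23, was at −0.02 and Prc1, which recruits Kif4 to the central spindle, at −0.02.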

How the data were processed

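RNA sequencing of 8 libraries of polyadenylated RNA from ventricles was analysed from 1 deposited table of 13869 genes by Ensembl identifier. Per the submitters' processing notes, cutadapt 1.2.1, RSEM 1.16, Bowtie2 0.12.7 (version as named), limma and edgeR were used and the build was mm9. How genes were chosen for the table and whether counting used strand are not given in the sources used here. The deposited values are a score which, read from the values themselves, is log2 CPM with a prior of 0.5 counts, multiplied by a constant per column (15.9683 to 16.0735) so that the column sums to 1000000. Each column was divided by its constant, and 100% of the values then gave whole counts within 0.001 counts. CPM are these counts over the normalized library size.

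Symbols came from GENCODE M21 by identifier (13428 genes matched, 441 did not). The 13740 genes whose mean log2 CPM reached 0 were fitted with limma 3.58.1 in R 4.3.3 (lmFit, eBayes with trend, group as the only term), two-sided, with Benjamini-Hochberg adjustment over all genes tested. Differences are log2, mutant minus wild type. The members, classes and lists were chosen with earlier results of these data known. Every kinesin is named. Values in every library are given for called members, the 4 of smallest p and the 2 of highest level per kb in each class, and from each partner list for up to 4 called members or the 1 of smallest p. Other partner and marker genes named, the motifs and their window, and counts without Kif1a were chosen after values were seen. Exons of Kif18a, Kif20a, Kif4, Kif2a, Kif7 and Kif3c overlap genes on the opposite strand that are in the table, and without strand such reads cannot be told apart. The steps were tested on simulated data. Alternatives covered the pseudocount, filter, scaling, variance model, replicate block, threshold and each library left out.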

Additional observations from a re-analysis of the deposited data

How the results depend on the processing

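Kif1a was called in all 22 alternative fits, at 1.11 to 1.31 on the log2 scale with adjusted p values of 5.4e-09 to 0.000441 (1.19 to 1.31 with a library left out). The count of kinesin genes called was 1 under all 24 alternatives, thresholds of 0.01 and 0.1 included. The other 31 kinesins were called in none of the fits they entered. Kif5a, Kif5c, Kif6 and Kif27 dropped out at the filter of 5 CPM. The replicate numbers did not pair the libraries: libraries of the same number correlated at −0.038 to 0.1 after removal of the group means, and 0 mutant and 1 wild-type library resembled its own number best. With the replicate block Kif1a stood at 1.24 (adjusted p = 1.06e-05), and 240 genes were called in place of 308.

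The count of all genes called moved more: 119 and 551 at thresholds of 0.01 and 0.1, 179 without the trend, and 146 to 477 with a library left out (183 without mutant replicate 2, 477 without mutant replicate 3, and 146, 147 and 161 without wild-type replicates 1, 2 and 3). The median of the mitotic kinesins was 0.06 with the deposited scaling left in place, 0.04 with voom weights, and 0.04 to 0.06 with a library left out. That of the transport kinesins was 0.01 to 0.07 with a library left out. That of the other kinesins was 0.08 at a pseudocount of 5 CPM, −0.01 at the filter of 5 CPM, which removes Kif6 and Kif27, and 0.08 to 0.18 with a library left out; the cause of the other shifts was not tested. No scaling moved the median of all genes beyond 0.013. Map6 lost its call without a filter (adjusted p = 0.0521), with upper-quartile scaling (0.0528), with voom weights (0.0565) and without the trend (0.0733). Depth limits Kif5a, Kif5c, Kif6 and Kif27, whose smallest counts were 9, 12, 6 and 6.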
